A study of Mus musculus with 13 samples.

Results

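The genes described here are 10 members of the TGF-beta superfamily network that sets muscle mass and signals muscle stress: the ligands Gdf15, Mstn, Gdf11, Inhba and Inhbb, the antagonists Fst and Fstl3, and the receptors Acvr2a, Acvr2b and Acvr1b. They were taken by gene name from the non-control probes of the arrays, which gave 12 of 55681 probes. Of these, 9 probes for 9 genes were bright enough to be tested, among 17257 genes tested in all; the probe of Gdf11 and the second probes of Acvr2a and Acvr1b were not. The study profiled gastrocnemius muscle of individual male C57BL/6J mice: 7 mice with a UCP1 transgene expressed in skeletal muscle (UCP1 Tg) and 6 of their wild-type (WT) littermates. UCP1, normally made in brown fat, lets protons leak back into mitochondria, and the study's title places the comparison in the setting of amino acid deprivation and FGF-21 signalling. Both groups carried no other allele named in the labels, were aged 12 weeks, and ate the same purified low-fat (BIOCLAIMS) diet for 12 weeks; the promoter that drives the transgene was not given in the sources used here. Each mouse's RNA was labelled with Cy5 and hybridised with one common Cy3 reference pool on an Agilent 8x60K array, so every level given is a log2 ratio of one muscle to that pool, and every difference is UCP1 Tg minus WT on the log2 scale.

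GDF15 is a hormone that stressed cells secrete; it acts on the brainstem through the receptor GFRAL with its partner RET and lowers food intake. Myostatin (Mstn), its close relative GDF11 and the activins, which are dimers of the inhibin beta chains made from Inhba and Inhbb, bind a type II receptor (Acvr2a or Acvr2b). That receptor recruits and phosphorylates a type I receptor such as ACVR1B, also called ALK4, and the pair phosphorylates the transcription factors SMAD2 and SMAD3. In skeletal muscle this branch restrains growth, and follistatin (Fst) and follistatin-like 3 (Fstl3) block it by binding the ligands outside the cell.

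Each array had between 20643 and 24036 probes well above background, and no spot was saturated. The Ucp1 level of one array went against its label. Whether that signal came from the transgene or from the mouse's own Ucp1 was not tested. Ucp1 averaged 0.32 ± 0.38 in UCP1 Tg muscle (SD, n = 7, range -0.20 to 0.85) and -3.58 ± 0.50 in WT muscle other than wild type 4 (SD, n = 5, range -4.23 to -2.82), whereas the array labelled wild type 4 read 0.45. The array labelled wild type 4 was kept in its labelled group, and the differences without it are given beside the tested members below. All 8 skeletal muscle fibre markers were measured: 1 was higher (Myh1, 0.62), 5 were lower and 2 did not pass the test (Ckm, -0.03, and Mylpf, -0.11). The lower ones were Tnnt3 (-0.49), Actn3 (-0.70), Myh4 (-0.74), Pvalb (-0.91) and Acta1 (-0.93). Over all genes 33.0% passed, 16.9% as higher and 16.1% as lower. The mean level of the 8 fibre markers lay between -0.29 and 0.02 in UCP1 Tg muscle and between 0.18 and 0.54 in WT muscle. Because these markers did not move together, their mean is not a measure of fibre content. Of 7 white adipocyte markers, 5 were higher and 0 lower, with a mean level of -0.23 to 0.44 in UCP1 Tg muscle and -0.73 to 0.02 in WT muscle. The highest WT value belonged to the array labelled wild type 4. The mean of 5 brown adipocyte markers, a list without Ucp1, spanned -0.20 to -0.03 in UCP1 Tg muscle and -0.73 to 0.57 in WT muscle, where the highest value was again that of the array labelled wild type 4. In whole muscle, fewer cells of a type and less RNA per cell cannot be told apart. The part of these markers in the results below was not tested beyond a fit with the white adipocyte mean as a covariate. Outside wild type 4, that mean was -0.73 to -0.47 in WT muscle, under every UCP1 Tg muscle, so it nearly follows the groups. Errors were wider in that fit (for Mstn an SE of 0.18, against 0.10 as reported). A call that ended with this covariate therefore cannot be assigned to fat cells.

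Among the 9 members tested, 2 rose in UCP1 Tg muscle (Gdf15 and Fstl3), 3 fell (Mstn, Acvr2a and Acvr1b) and 4 did not pass the test (Inhba, Inhbb, Fst and Acvr2b), at a Benjamini-Hochberg adjusted p under 0.05 from limma over all genes. The share that passed was 55.6%, where 33.0% of all genes passed, 16.9% as higher and 16.1% as lower. The median difference of the members was -0.04, against -0.00102 for all genes. The 7 UCP1 Tg and 6 WT arrays did not overlap at all for 2 members, Gdf15 and Acvr2a, against 14.7% of all genes. The sizes were far apart: Gdf15 differed by 3.63 on the log2 scale, a value that rests on a WT level at the edge of detection, and Acvr2a, the next member by size, by -0.51.

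**Figure D1:**
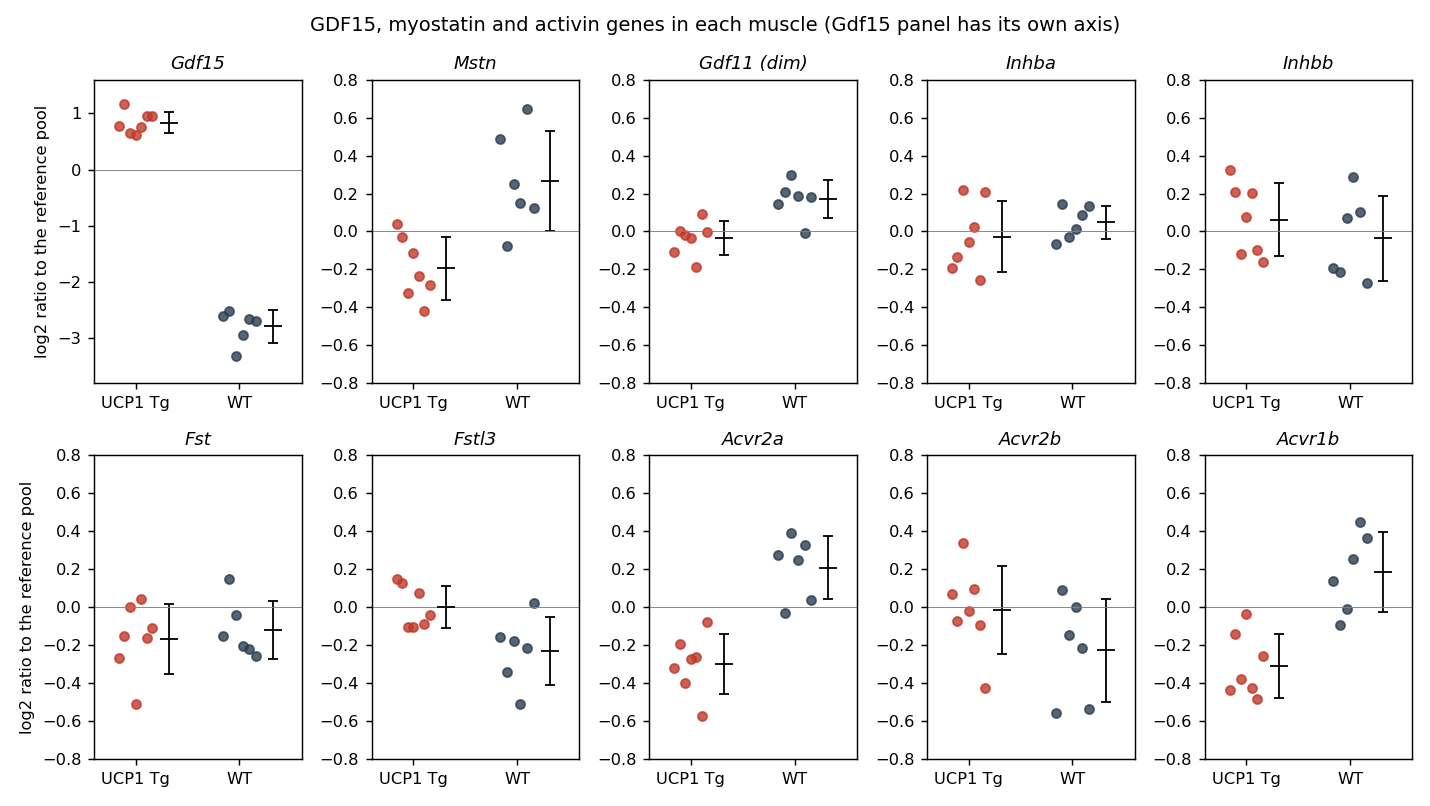
Log2 ratio to the reference pool (vertical axis) of each member in each muscle, with UCP1 Tg arrays in red (n = 7) and WT arrays in dark blue (n = 6), and the group mean with its SD as a cross with bars. Gdf15 has its own axis, on which the groups lie more than 3 log2 units apart; the other 9 panels share an axis from -0.8 to 0.8, where Acvr2a separates the groups and so does no other tested gene.

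Gdf15 was measured by a 60-base probe at chr8:73153293-73153352 (minus strand, mm9), of which the first 30 bases are shown because this probe carries the largest change of the family.
Gdf15 probe: ctgggtggatggattgtgtatttatttaaa
Gdf15 read 0.61 at the lowest, 0.78 at the median and 1.16 at the highest among UCP1 Tg muscles, against -3.31, -2.68 and -2.52 among WT muscles. Every UCP1 Tg muscle was above every WT muscle, and the gap between the groups was wider than the spread within either. The means were 0.84 ± 0.19 in UCP1 Tg and -2.79 ± 0.29 in WT (SD, n = 7 and 6), a difference of 3.63 ± 0.12 (SE), or 12.3-fold, with an adjusted p of 2.32e-14. The Cy5 signal above local background was 786 at the lowest, 1279 at the median and 1607 at the highest in UCP1 Tg muscle, against 17.3, 34.9 and 47.2 in WT muscle. The probe was well above background on 7 of 7 UCP1 Tg arrays and on 4 of 6 WT arrays, so the WT level sat at the edge of detection and Gdf15 entered the test through the UCP1 Tg arrays. The size of the change differed between background treatments: it was 5.28 with Agilent's own log ratios and 4.37 with a smaller background offset of 10 in place of 50. Within the 4 slides the difference was 3.57 to 3.63. The array labelled wild type 4, whose Ucp1 lay within the range of the UCP1 Tg arrays, had a WT level of Gdf15 (-2.94): with that array left out, the difference was 3.60. Fgf21, the FGF-21 gene of the study's title, had a difference of 4.02. Of the receptors for GDF15, Gfral did not pass the filter on dim probes and Ret did not pass the test, with a difference of -0.13.

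The 250 bases before the RefSeq starts of Gdf15 and Mstn (GRCm38.p6) are printed because these ligands moved in opposite directions. Capitals mark every match, on either strand, to the motifs searched: the C/EBP-ATF response element with the letters TGATGNAA, the core of the cAMP response element with the letters TGACG, the palindromic SMAD-binding element with the letters GTCTAGAC, the SMAD box with the letters CAGAC, and the TATA box with the letters TATAAA. The SMAD-binding element holds no copy of the SMAD box as searched, and no other pair of these motifs overlaps within the printed bases.
Gdf15 start 1, chr8:70632096-70632345, minus strand: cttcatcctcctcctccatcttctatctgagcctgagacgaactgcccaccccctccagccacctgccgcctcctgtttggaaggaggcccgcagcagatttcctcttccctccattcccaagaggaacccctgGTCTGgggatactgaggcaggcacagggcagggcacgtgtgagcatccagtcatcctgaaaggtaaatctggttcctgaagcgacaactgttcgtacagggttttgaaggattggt
Gdf15 start 2, chr8:70632457-70632706, minus strand: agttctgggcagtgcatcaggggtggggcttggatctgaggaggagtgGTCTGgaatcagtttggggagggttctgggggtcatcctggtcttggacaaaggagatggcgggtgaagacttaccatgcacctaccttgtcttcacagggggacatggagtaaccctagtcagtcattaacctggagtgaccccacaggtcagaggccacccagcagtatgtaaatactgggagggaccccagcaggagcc
Mstn, chr1:53061390-53061639, plus strand: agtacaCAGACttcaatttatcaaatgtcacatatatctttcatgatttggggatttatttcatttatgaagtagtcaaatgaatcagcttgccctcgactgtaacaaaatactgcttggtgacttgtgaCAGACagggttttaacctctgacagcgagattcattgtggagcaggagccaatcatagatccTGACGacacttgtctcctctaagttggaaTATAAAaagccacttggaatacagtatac
Both Gdf15 windows held 1 SMAD box on the reverse strand, 116 to 112 bases before start 1 and 202 to 198 bases before start 2, and no other match. The Mstn window held the cAMP core element 58 to 54 bases before the start, SMAD boxes 244 to 240 and 120 to 116 bases before it, and a TATA box 29 to 24 bases before it. Of 32851 promoter windows of this length, 3.45% held the C/EBP-ATF response element, 17.8% the cAMP core element, 0.167% the SMAD-binding element, 42.2% the SMAD box and 12.4% the TATA box. Promoters were found for 9 of the 10 members, and these motifs occurred in 0, 2, 0, 5 and 4 of them in the same order. These matches describe the letters only.

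Mstn, the myokine that limits muscle size, was measured at chr1:53124482-53124541 (plus strand, mm9) by a probe whose first 30 bases are shown as the second ligand that passed the test.
Mstn probe: tcacaaaaaaggtgactgcttctatttcag
Mstn read -0.42 at the lowest, -0.23 at the median and 0.04 at the highest in UCP1 Tg muscle, against -0.07, 0.20 and 0.65 in WT muscle. The groups overlapped, with 1 WT muscle among the upper UCP1 Tg ones, and the WT muscles were the more spread out. The means were -0.19 ± 0.17 in UCP1 Tg and 0.26 ± 0.26 in WT (SD), a difference of -0.46 ± 0.10, or 1.37-fold lower, with an adjusted p of 0.00197. Leaving out the array labelled wild type 4 gave -0.48, and with the white adipocyte mean as a covariate it was -0.65 (adjusted p = 0.0172). Within the slides it was -0.74 to -0.32. Centring each array on its median without loess ended the call (-0.23, adjusted p = 0.462); that scaling moved the median of all genes to 0.14, and relative to it Mstn lay at -0.37.

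Neither activin chain passed the test, and Gdf11 could not be tested. Gdf11, the closest relative of Mstn, was well above background on 0 of 7 UCP1 Tg arrays and on 2 of 6 WT arrays, so it was not tested; its probe lies at chr10:128322284-128322343 (minus strand, mm9). It read -0.19, -0.02 and 0.09 (lowest, median and highest) in UCP1 Tg muscle and -0.01, 0.19 and 0.30 in WT muscle, which overlap. Inhba, which encodes the chain of activin A, read -0.26, -0.05 and 0.22 in UCP1 Tg muscle, against -0.06, 0.05 and 0.15 in WT muscle. The UCP1 Tg values spread to both sides of the WT ones, and the difference of -0.08 ± 0.08 did not pass the test (adjusted p = 0.515). Inhbb, which encodes the chain of activin B and is also made by fat cells, read -0.16, 0.08 and 0.32 in UCP1 Tg muscle, against -0.27, -0.06 and 0.28 in WT muscle. The ranges overlapped almost wholly, the highest WT value was that of the array labelled wild type 4, and the difference was 0.10 ± 0.10 (adjusted p = 0.487). Adipoq, the adiponectin gene that defines fat cells, read -0.59, 0.12 and 0.47 in UCP1 Tg muscle, against -1.14, -0.86 and -0.14 in WT muscle, a difference of 0.81 ± 0.16 (adjusted p = 4.74e-04). With the white adipocyte mean as a covariate the Inhbb difference was -0.23, and without the array labelled wild type 4 it was 0.16. It did not pass the test in either fit. Without that array the Inhba difference stayed at -0.08. Both chains were dim, with median Cy5 signals above local background of 53.8 (UCP1 Tg) and 44.5 (WT) for Inhba. For Inhbb they were 55.6 and 53.9. With Agilent's own log ratios the differences were -0.20 for Inhba and 0.22 for Inhbb, neither passing the test.

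The antagonists gave 1 small call. Fstl3 (chr10:79244916-79244975, plus strand, mm9), which binds activins and myostatin, read -0.10, -0.04 and 0.15 (lowest, median and highest) in UCP1 Tg muscle, against -0.51, -0.20 and 0.02 in WT muscle. The highest WT muscle lay among the UCP1 Tg ones and the rest of the WT muscles lay under them, with the array labelled wild type 4 the lowest. Fstl3 rose by 0.23 ± 0.08, or 1.17-fold, with an adjusted p of 0.0313. This call was close to the threshold. It ended without the arrays labelled wild type 2 (adjusted p = 0.0704) or wild type 4 (0.0848) and without UCP1 Tg 1 (0.0664), 2 (0.0586) or 5 (0.0594). It also ended with Cy5 alone (0.0677), the authors' value table (0.183), median centring (0.0902) and the white adipocyte covariate (0.120). With Agilent's own log ratios the difference was 0.43, and without the array labelled wild type 4 it was 0.18. Fstl3 was dim, with a median Cy5 signal above local background of 60.3 in UCP1 Tg and 40.4 in WT muscle. That of Gdf15 in WT muscle was 34.9. Fst (chr13:115243565-115243624, minus strand, mm9), the follistatin gene, read -0.51, -0.15 and 0.04 in UCP1 Tg muscle, against -0.26, -0.18 and 0.15 in WT muscle. The ranges overlapped over most of the WT one, and the difference was -0.04 ± 0.09 (adjusted p = 0.740), with its sign dependent on the processing (-0.08 to 0.14). The value of 0.14 came from median centring, which moved the median of all genes to 0.14. Relative to that median Fst lay at -7.8e-05. Without the array labelled wild type 4 the Fst difference was -0.06.

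A type II and a type I activin receptor were both lower. Acvr2a was read by a brighter and a dimmer probe at chr2:48758429-48758488 and chr2:48757324-48757383 (plus strand, mm9), and Acvr1b by a brighter and a dimmer one at chr15:101043956-101044015 and chr15:101042850-101042909 (plus strand, mm9). The first 30 bases of all 4 are shown because only the brighter probe of each pair could be tested.
Acvr2a brighter probe: tggacaaagatacaagtagcatcttgatta
Acvr2a dimmer probe: acctcctttaaaagctgataaatgagggat
Acvr1b brighter probe: gtacaatttattagaaaggactgtaaaata
Acvr1b dimmer probe: aattctccagactcaaacgcacatagttca
Acvr2a read -0.57 at the lowest, -0.28 at the median and -0.08 at the highest in UCP1 Tg muscle, against -0.03, 0.26 and 0.39 in WT muscle. The groups did not overlap, although the highest UCP1 Tg and the lowest WT muscle nearly met. Acvr2a fell by 0.51 ± 0.08 on the log2 scale, or 1.42-fold, with an adjusted p of 1.13e-04. Within the slides the difference was -0.58 to -0.51, without the array labelled wild type 4 it was -0.50, and with Agilent's own log ratios -0.78. The dimmer Acvr2a probe was well above background on 0 of 7 UCP1 Tg and 3 of 6 WT arrays, with a measured difference of -0.06. Acvr1b read -0.49, -0.38 and -0.03 in UCP1 Tg muscle, against -0.09, 0.20 and 0.45 in WT muscle. The groups overlapped at one end, where the highest UCP1 Tg muscle passed the lowest WT one. Acvr1b fell by 0.49 ± 0.10 on the log2 scale, or 1.41-fold (adjusted p = 4.55e-04). Leaving out the array labelled wild type 4 gave a difference of -0.48, within the slides it was -0.78 to -0.33, and the dimmer probe, above background on 0 of 7 UCP1 Tg and 1 of 6 WT arrays, gave -0.17. The brighter Acvr1b probe, on which the call rests, is annotated to a transcript without a RefSeq match, whereas the dimmer one matched RefSeq.

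Median centring without loess ended both receptor calls, with a difference of -0.35 for Acvr2a (adjusted p = 0.191) and -0.27 for Acvr1b (adjusted p = 0.433); relative to that scaling's shift of all genes they lay at -0.49 and -0.41. With the white adipocyte covariate they were -0.61 (adjusted p = 0.00846) and -0.66 (adjusted p = 0.00870). Acvr2b (chr9:119342560-119342619, plus strand, mm9), the type II receptor with the higher affinity for myostatin, read -0.42, -0.02 and 0.34 (lowest, median and highest) in UCP1 Tg muscle, against -0.56, -0.18 and 0.09 in WT muscle. The ranges overlapped over most of their length, and the difference of 0.21 ± 0.12 did not pass the test (adjusted p = 0.181). It passed with slide as a fixed block (0.25, adjusted p = 0.0410) and was -0.02 with the white adipocyte covariate. Without the array labelled wild type 4 the Acvr2b difference was 0.26 (adjusted p = 0.115).

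**Figure D2:**
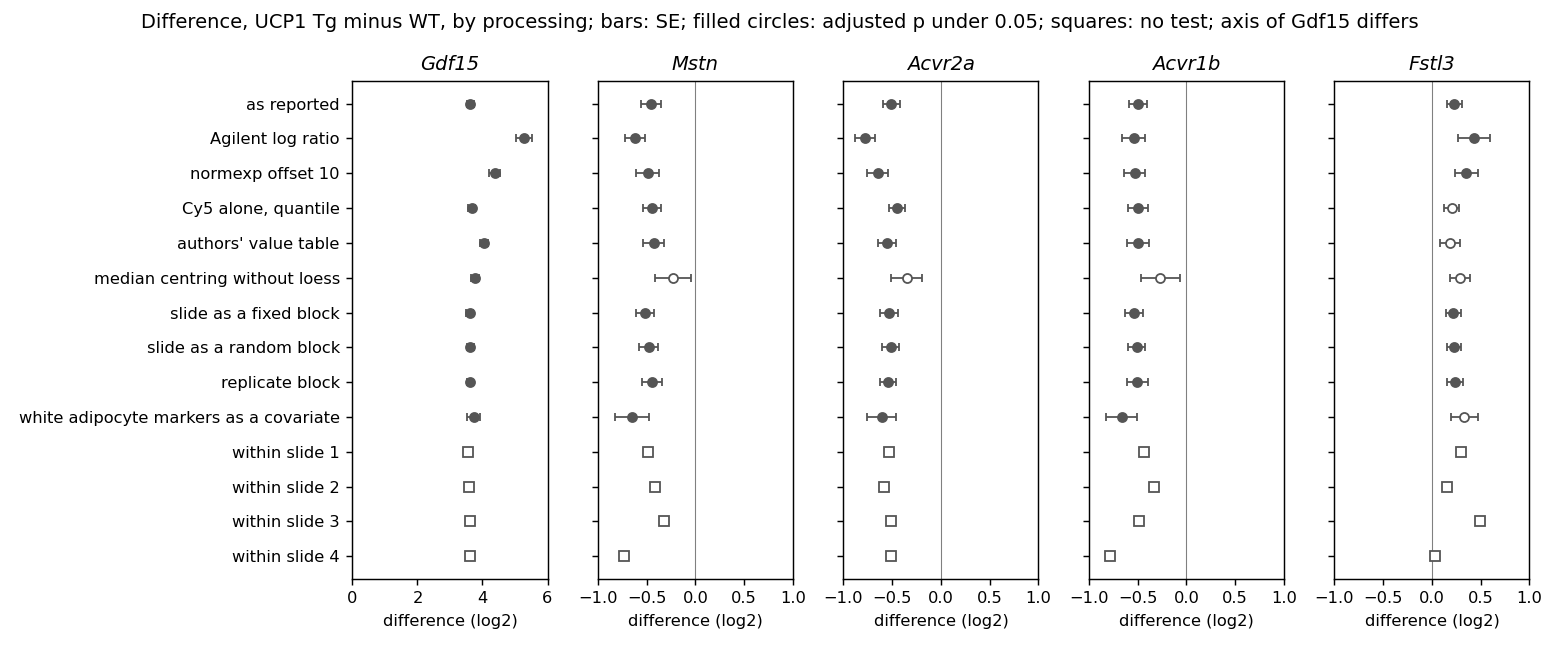
Difference between UCP1 Tg and WT (horizontal axis, log2) of the 5 members that passed the test, under each processing listed on the vertical axis; circles are filled where the adjusted p was under 0.05, bars are SE, and open squares are differences within a slide, which have no test. Gdf15 lies right of 3 throughout, on an axis of its own; Mstn, Acvr2a and Acvr1b lie left of 0 throughout and are open circles under median centring, and Fstl3 lies right of 0 with 4 open circles.

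The rest of the pathway was described by 6 lists with 91 genes, of which 76 were tested. In them 9 genes rose and 18 fell, 35.5% in all, against 33.0% of all genes; the median difference was -0.07. Median centring left 5 higher and 3 lower, and over all genes turned 2910 higher and 2785 lower into 1039 higher and 264 lower. It also moved the median of all genes to 0.14, so the differences given under median centring carry that shift. The genes named in the following are, for each list, those with the largest differences among the genes that passed the test, up to 3 in each direction.

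Of 13 tested genes for intracellular SMAD proteins, their ligases and corepressors, 0 rose, 7 fell and 6 had no call. The median difference was -0.21. Calls made up 53.8% of this list, all of them lower, against 33.0% of all genes, 16.1% as lower. Both the signal carrier Smad3 and genes that restrain it, Pmepa1 and Skil, were lower, so the count gives no direction for signalling. Smad3, the transcription factor that carries the myostatin and activin signal, read -1.03, -0.77 and -0.57 (lowest, median and highest) in UCP1 Tg muscle, against 0.30, 0.55 and 0.69 in WT muscle. The groups were far apart, and Smad3 fell by 1.30 ± 0.09 on the log2 scale, or 2.46-fold, with an adjusted p of 7.93e-10. Pmepa1, which holds SMAD2 and SMAD3 away from the receptor and is itself induced by TGF-beta, read -0.76, -0.63 and -0.15 in UCP1 Tg muscle, against 0.11, 0.39 and 0.54 in WT muscle. Those groups did not overlap either, and Pmepa1 fell by 0.91 ± 0.10, or 1.87-fold (adjusted p = 4.97e-07). Its second probe, which covers nearly the same bases and so is not a separate check, gave -0.83. Skil, which encodes the SMAD corepressor SnoN, had a difference of -0.38 ± 0.08 (adjusted p = 0.00163). The calls of Smad3 and Pmepa1 held under every alternative run; that of Skil ended with median centring and with the adipocyte covariate.

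Among 13 other receptors and co-receptors, 1 rose, 3 fell and 9 did not pass. The share that passed, 30.8%, was near the 33.0% of all genes. Acvr1, a type I receptor for BMPs and activins also called ALK2, read -0.87, -0.52 and -0.39 (lowest, median and highest) in UCP1 Tg muscle, against 0.17, 0.39 and 0.49 in WT muscle. With no overlap, Acvr1 fell by 0.90 ± 0.08 on the log2 scale, or 1.86-fold (adjusted p = 4.47e-08), and its second probe gave -0.59. Rgma, a BMP co-receptor, had a difference of -0.47 ± 0.08 (adjusted p = 1.06e-04), also with no overlap, and its call ended only with median centring among the alternatives run. Tgfbr1, the type I receptor for TGF-beta, had a difference of -0.23 ± 0.08 (adjusted p = 0.0320). That call ended with median centring (-0.02), without wild type 3, 5 or 6 and without UCP1 Tg 1, 2 or 3 (adjusted p of 0.0573 to 0.0784), and its sign turned with the adipocyte covariate (0.11). Acvr1c, the type I receptor ALK7 of fat cells, had a difference of 0.26 ± 0.07 (adjusted p = 0.00865). With Agilent's own log ratios it was 0.97, with an offset of 10 it was 0.43, and with the adipocyte covariate it was 0.17 (adjusted p = 0.438). Its call also ended with median centring (adjusted p = 0.0927) and in the authors' value table (0.0686). The probe was well above background on 7 of 7 UCP1 Tg and 4 of 6 WT arrays, so the UCP1 Tg arrays alone took Acvr1c past the filter. A second probe, well above background on 7 and 2 arrays, gave 0.45.

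Of 11 other ligands, 2 rose, 2 fell and 7 did not pass. The share that passed, 36.4%, was near the 33.0% of all genes. Inha, the inhibin alpha chain that turns activin chains into inhibins, had a difference of 0.30 ± 0.08 (adjusted p = 0.00871). It was 0.85 with Agilent's own log ratios and 0.19 in the authors' value table (adjusted p = 0.147). The Inha call ended there, with median centring (0.0750) and with the adipocyte covariate (0.0559). Inha was well above background on 7 of 7 UCP1 Tg and 5 of 6 WT arrays, so the UCP1 Tg arrays alone took it past the filter. Bmp6, a BMP ligand, had a difference of 0.26 ± 0.07 (adjusted p = 0.0107), which was 0.03 with the adipocyte covariate and 0.38 with median centring (adjusted p = 0.0766), neither passing the test. Tgfb3 and Tgfb2, ligands of the TGF-beta receptors, had differences of -0.20 ± 0.06 (adjusted p = 0.0178) and -0.25 ± 0.09 (adjusted p = 0.0475). Tgfb3 turned to 0.04 with median centring and did not pass with the authors' table or the adipocyte covariate, and the Tgfb2 call ended in 17 of the alternatives, 10 of which left out 1 array (all but the arrays labelled wild type 2 and UCP1 Tg 2 and 4). The second Tgfb2 probe gave -0.34 (adjusted p = 0.00642 from limma over all kept probes).

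The antagonists, binders and activating proteases outside the members held few calls: of 13 tested, 1 rose, 0 fell and 12 did not pass. The share that passed was 7.7%, against 33.0% of all genes. Nog, which encodes the BMP antagonist noggin, read 0.07, 0.32 and 0.52 (lowest, median and highest) in UCP1 Tg muscle, against -0.45, -0.24 and -0.06 in WT muscle. It rose with no overlap, by 0.55 ± 0.09, or 1.46-fold (adjusted p = 6.25e-05), and by 1.17 with Agilent's own log ratios. The call held under every alternative run.

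**Figure D3:**
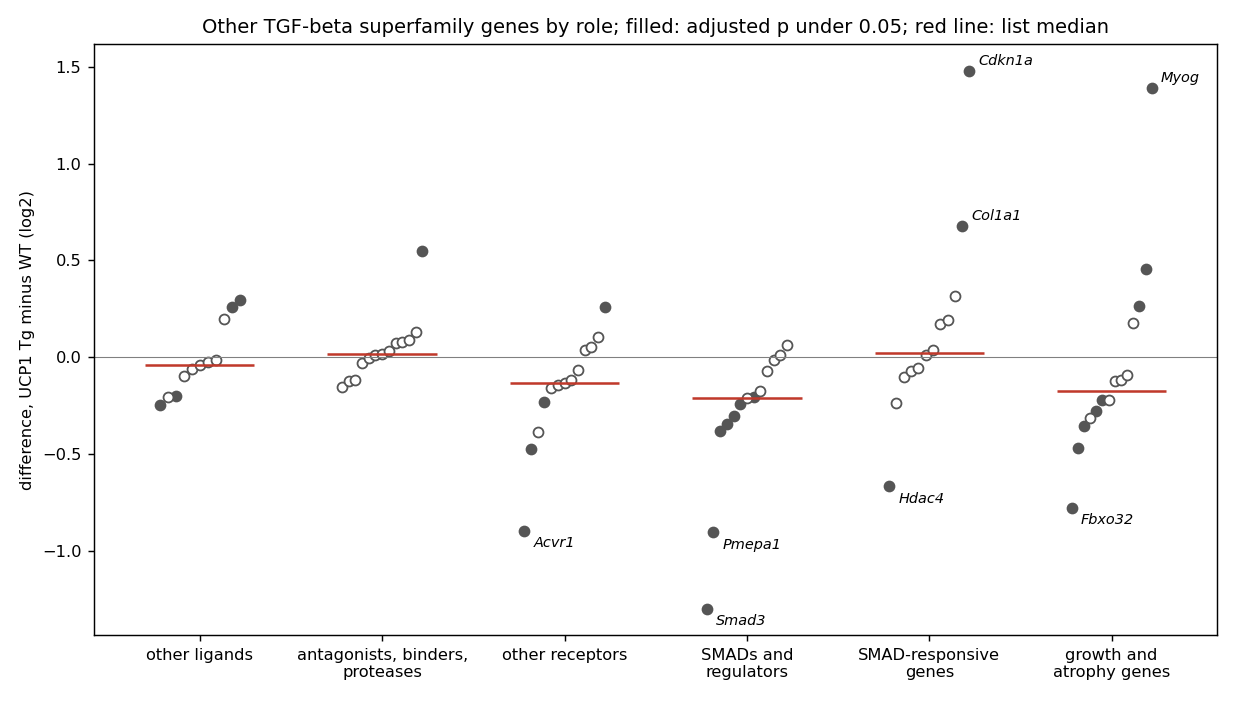
Difference between UCP1 Tg and WT (vertical axis, log2) of the 76 tested pathway genes in 6 lists by role (horizontal axis), with filled points for an adjusted p under 0.05 and a red line at each list's median. Smad3 lies at -1.30, Acvr1 at -0.90 and Cdkn1a and Myog above 1.3, while the list medians lie between -0.21 and 0.02.

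Of 12 tested genes known to respond to SMADs, 2 rose, 1 fell and 9 had no call. The median difference was 0.02. Calls made up 25% of this list, fewer than the 33.0% of all genes. Cdkn1a, the cyclin-dependent kinase inhibitor p21, read 0.21, 0.38 and 0.96 (lowest, median and highest) in UCP1 Tg muscle, against -1.91, -0.91 and -0.57 in WT muscle, where the lowest value was that of the array labelled wild type 4. Without overlap it rose by 1.48 ± 0.17, or 2.79-fold (adjusted p = 2.11e-06), and by 2.28 with the adipocyte covariate. Col1a1, a fibrillar collagen chain, had a difference of 0.68 ± 0.16 (adjusted p = 0.00253), which did not pass with the adipocyte covariate (0.54, adjusted p = 0.228) and was 0.12 within slide 4. Hdac4, a deacetylase that responds to denervation, had a difference of -0.67 ± 0.08 with no overlap (adjusted p = 1.58e-06) and did not pass with median centring (-0.44).

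Of 14 tested muscle growth and atrophy genes, 3 rose, 5 fell and 6 had no call. The median difference was -0.17. Calls made up 57.1% of this list, against 33.0% of all genes. Whether these genes lay downstream of the members in this muscle was not tested. Myog, the myogenic factor myogenin, read 0.40, 0.61 and 0.80 (lowest, median and highest) in UCP1 Tg muscle, against -1.02, -0.82 and -0.42 in WT muscle; it rose by 1.39 ± 0.09, or 2.62-fold (adjusted p = 8.30e-10). Fbxo32, the atrophy ubiquitin ligase atrogin-1, read -1.05, -0.62 and -0.22 in UCP1 Tg muscle, against 0.00, 0.16 and 0.38 in WT muscle. With no overlap it fell by 0.78 ± 0.12 on the log2 scale, or 1.72-fold (adjusted p = 3.38e-05); the call ended with median centring (-0.52) and with the adipocyte covariate (-0.55). Trim63, the other atrophy ligase of the list, did not pass, with a difference of -0.12. Of the insulin and IGF1 pathway, the receptor Igf1r (0.45 ± 0.08) and the kinase Akt1 (0.26 ± 0.06) were higher, while the kinases Akt2 (-0.47 ± 0.08) and Rps6kb1 (-0.36 ± 0.08) were lower. Of these 4 calls, that of Igf1r held under every alternative, that of Rps6kb1 ended with median centring (-0.09), and those of Akt1 (0.54 and 0.18) and Akt2 (-0.17 and -0.36) ended both with median centring and with the adipocyte covariate. The other Akt2 probes gave -0.53 (over nearly the same bases as the reported one), -0.29 and -0.16. The other Rps6kb1 probes gave -0.29 and -0.14, and the last did not pass limma over all kept probes (adjusted p = 0.162).

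The genes whose levels followed Gdf15 most closely over the 13 arrays, among 17134 genes without a missing value, were Psat1 (Pearson r 0.996), Cebpg (0.995), Emb (0.995), Soat2 (0.994) and Trib3 (0.993). The 2 groups form separate clusters for these genes, so the values describe the shared gap and carry no test. With the group means taken out, r was 0.68, 0.65, 0.61, 0.55 and 0.47 in that order. For Mstn the closest were the transcripts TC1638635 (0.953) and NAP102340-1 (0.947), Piezo1 (listed on the array as Fam38a, 0.943), S100a6 (0.938) and Anxa2 (0.932). Here r with the group means taken out stayed at 0.92, 0.88, 0.87, 0.89 and 0.86. Among pairs of the 9 tested members, with the group means taken out, the values furthest from 0 were -0.73 for Fst with Acvr1b and 0.59 for Mstn with Acvr2a. Mstn had r of 0.50 with Acvr1b and -0.48 with Fst, and Gdf15 had r of 0.04 with Mstn. All of these points share arrays, slides and the reference pool.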

How the data were processed

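Gene expression was measured on 13 Agilent 2-colour arrays with 62976 spots, of which 3671 were controls. Per the file headers and the labels, Cy5 held the individual mouse and Cy3 the reference pool on every array, with no dye swap. The deposited intensity values (mean signal and background median per channel) came from Agilent Feature Extraction 10.5.1.1, per the submitters' processing notes. The deposited log10 ratio of the same files and the deposited flags (other: well above background, saturated, outlier, control) were also used. The authors' deposited value table, taken as log2 intensity, served as an alternative. It holds 25583 rows with column medians of 7.58; its columns correlated at 0.988 to 0.994 with the matching Cy5 signal, with the Cy3 signal at 0.985 to 0.990 and with the log ratio at 0.0675 to 0.147. Its scale and centring are otherwise not given in the sources used here. No per-sample column was left unmapped (0).

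Background was corrected with normexp (offset 50), arrays were normalised by loess with control and outlier spots at weight 0, and outlier spots were dropped, all in limma 3.58.1 (R 4.3.3). A probe was kept if at least 6 of the 13 arrays flagged its Cy5 signal as well above background (22716 of 55681, 40.8%), and the brightest kept probe stood for its gene (17257 genes). Groups were compared with lmFit and eBayes, two-sided, with Benjamini-Hochberg adjustment over all genes and a threshold of 0.05, after tests on simulated data. The labels call the samples individual mice, so p-values measure the spread between mice. Probe coordinates are mm9 (NCBI37), from the files; 11 of 12 member probes matched RefSeq by accession, with 0 disagreeing symbols, and promoter sequences are RefSeq's (GRCm38.p6).

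The members and gene lists were chosen with earlier results of these data known. Some genes of these lists are not reported here and are left out of the list counts. The named genes are the 10 members, Ucp1, Adipoq, up to 3 genes called higher and up to 3 called lower with the largest differences in each pathway list, and the 5 genes closest to Gdf15 and to Mstn by Pearson r. Fgf21, Gfral, Ret, Trim63 and the skeletal muscle fibre markers were added outside that rule after their values were seen. Replicate numbers were not treated as pairs: the correlation of same-numbered arrays' deviations was -0.23 to 0.23, over 0.1 for 3 of 6 numbers. For differently numbered arrays it was -0.31 to 0.39, over 0.1 for 10 of 36 pairs. So few same-numbered values cannot decide whether the numbers pair the mice. Slides held 2 and 1, 1 and 2, 2 and 1, and 2 and 2 UCP1 Tg and WT arrays; the correlation within slides was 0.169. The alternatives were Agilent's own log ratios, median centring, Cy5 alone, the authors' table, an offset of 10, other filters and probe rules, outlier spots kept, slide blocks, the replicate block, a white adipocyte covariate and leaving out each array. The number of arrays limits the precision.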

Additional observations from a re-analysis of the deposited data

Results flagged for a closer look

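In 6 of 108 checked sets of one gene or marker list in one group, a single array lay apart from the rest of its group; about 1 in 20 sets would do so by chance. The array labelled wild type 4 accounted for 3 of them. It read 0.45 for Ucp1, where the other WT arrays lay between -4.23 and -2.82, 0.019 for the white adipocyte marker mean, against -0.73 to -0.47 in the others, and -1.91 for Cdkn1a, against -0.93 to -0.57. Akt1 read 0.045 on the array labelled wild type 1, where the other WT arrays lay between -0.18 and -0.10. UCP1 Tg 6 read -0.48 for Rgma, where the other UCP1 Tg arrays lay between -0.24 and -0.06, and -0.34 for the transcript NAP102340-1, where they lay between -0.11 and -0.0012. No member was among these sets.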

How the results depend on the processing

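Over the named genes and members, 821 of the recomputed values counted as the same. A further 58 fell short of the threshold, 1 newly passed it, 10 turned sign and 37 within-slide or untested values moved. For tested values, the same meant an unchanged direction and side of the threshold. Within-slide values have no test, and there it meant lying within the gene's residual SD of the reported value. A sign turned within a slide was counted only for genes that passed the test as reported. Median centring without loess called 1303 genes (5695 as reported), 1 member as higher and 0 as lower, and 5 pathway genes as higher and 3 as lower, and turned Tgfb3 to 0.043 and Fst to 0.14. That scaling moved the median of all genes to 0.14 as well. The members called higher numbered 1 also with Cy5 alone, with the authors' table and with probes above background on all 13 arrays, the last because Gdf15 was then not tested. The white adipocyte covariate left 2612 genes, 1 member as higher, 4 pathway genes as higher and 7 as lower, and turned Acvr2b (-0.018), Tgfbr1 (0.11), Fst (0.10) and Inhbb (-0.23). Fst was also 0.0035 with slide as a fixed block, 0.0095 without wild type 2 and 0.013 without UCP1 Tg 4. Within slide 3, Tgfbr1 was 0.085. Leaving out each array in turn gave 5138 to 5708 genes, 1 to 2 members higher, 3 to 3 lower, 9 to 11 pathway genes higher and 14 to 21 lower, and Fst at -0.079 to 0.013. With the replicate block, 5369 genes, 2 members as higher and 3 as lower, and 10 and 19 pathway genes were called, and the Tgfb2 call ended (adjusted p = 0.0548). Except where the filter left Gdf15 out, the cause of these changes was not tested. Median Cy5 signals of 40.4 to 50.8 over a background of 29 to 33 limit what can be read from dim probes such as Gdf11.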
